A study of Mus musculus with 17 samples.

Results

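The 42 genes described here are genes of enterocyte absorption and the brush border, the carpet of microvilli on the apical face of the absorptive cell of the small intestine. They were taken by name from a fixed list: 7 digestive hydrolases, 7 brush border structure genes, 6 nutrient transporters, 10 genes of lipid handling, 5 of retinoid and detoxification metabolism, 4 of sugar and purine metabolism, the transcription factors Hnf4a and Hnf4g, and Prap1. All 42 were found among the 26422 genes counted in the series, and all 42 passed the filter on low counts in the tests over whole libraries. No measured value entered the choice by rule, although results from these samples were known when the list was drawn up.

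The data were 17 single-cell RNA libraries (Seq-Well S3) of mouse small intestinal organoids, epithelial cultures grown from crypts in a basement membrane gel. The crypts were from mice of the wild-type C57BL/6 strain, males and females from 1 to 6 months old, and each library pooled many organoids, so no group carries an allele or transgene. All groups received ENR, that is EGF, Noggin and R-spondin 1. The 2 day 0 libraries were in ENR+CV, where CHIR99021 (C) and valproic acid (V) hold cells in a stem-enriched state, and the other 15 were in ENR+CD, where CHIR99021 and DAPT (D), a Notch pathway inhibitor, direct cells toward the Paneth lineage. The ENR+CD libraries were 7 controls and 8 with 160 nM KPT-330, an inhibitor of the nuclear export receptor XPO1. Days 0.25, 1, 2 and 4 held 1 library per condition, day 3 held 1 control and 2 KPT-330 libraries, and day 6 held 2 of each. A medium that directs cells toward secretory fates, with DAPT present throughout, limits these cultures as a model of the absorptive epithelium.

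Enterocytes finish digestion at their surface. Disaccharidases and peptidases anchored in the microvillus membrane cut sugars and peptides, transporters carry the products into the cell, and absorbed fat is rebuilt into triglyceride and exported on chylomicrons that carry apolipoproteins. The microvilli are bundles of actin tied together by villin and espin, fixed to the membrane by myosin 1a and ezrin and to each other by the protocadherins Cdhr2 and Cdhr5. The program is known to depend on HNF4, CDX, HNF1 and GATA transcription factors, and Notch signalling normally favours the absorptive over the secretory fate.

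The libraries held 19877 cells kept by the authors of 26229 barcodes, with 531 to 1547 cells and 3458887 to 12433109 UMIs (unique molecular identifiers, which count RNA molecules) per library, median UMIs per cell of 2676 to 8463 and median mitochondrial shares of 6.31% to 18.3%. Only 28 kept cells carried a barcode that a kept cell of another library also carried. Levels are in CPM, the UMI count of a gene over the summed cells of a library divided by that library's total, scaled by TMM, edgeR's correction for differences in RNA composition, and they do not correct for transcript length because the protocol tags transcript ends. Libraries pool cell types, so fewer cells of a type and less RNA per cell cannot be told apart in them. The labels do not say whether replicate numbers are separate cultures or animals, so p-values measure the spread between libraries, which may be technical.

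The day 6 libraries stood apart from each other. In KPT-330 replicate 1 of day 6, 19.1% of cells passed a gate for enterocyte genes, against 2.60% in KPT-330 replicate 2 and 7.42% and 2.17% in the controls. The gated cells of that replicate 1 had a median mitochondrial share of 23.2% and held 6 Paneth cell markers (Lyz1, Defa17, Defa24, Mmp7, Ang4 and Itln1) at 68058 plain CPM in sum. The median over the gated cells of the libraries of all days was 1670 plain CPM. At day 6 the gated cells of KPT-330 replicate 2 held 15951 and those of the controls 6870 and 1931 plain CPM. The TMM factor of KPT-330 replicate 1 was the lowest of the 17 libraries, 0.708. Each result on day 6 is therefore given for each library, and the whole-library counts over days 0.25 to 6 are also given without KPT-330 replicate 1. Counts within gated cells appear without it only inside the range over single libraries left out.

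To show regulatory sequence beside the values, the 250 bases before the annotated start were read for the members whose level moved within gated cells (below). Of the 42 members, 37 matched the RefSeq table for GRCm38.p6, with 41 windows. The windows were searched on both strands for an HNF4 motif, CAAAGNNCA, which was in 9 of the 41 member windows (22.0%) and in 5.49% of all 32851 promoter windows. The HNF1 motif GTTAATNA was in 4 member windows (9.76%) against 2.33% of all windows. For CDX factors TTTATNG was searched, and it was in 10 member windows (24.4%) against 9.81%. Its matches in Dpp4, Rbp2, Krt20 and Apob read CTATAAA, which also holds TATAAA, the letters of a TATA box. Such matches were not separated from the others, so these shares do not count CDX letters alone. The GATA motif AGATAA was in 11 (26.8%) against 9.99%. Matches in the member windows did not overlap each other, some genes had more than 1 start, and a match is a run of letters, not a measured binding site. The windows of the disaccharidases Sis, Lct and Mgam, which were higher with KPT-330 within gated cells, and of the peptidase Anpep, which was lower, are printed 5′ to 3′ on the gene's strand with matches in capitals. They lie at chr3:72967864-72968113 on the minus strand (Sis), chr1:128328319-128328568 on the minus strand (Lct), chr6:40628581-40628830 on the plus strand (Mgam) and chr7:79848211-79848460 on the minus strand (Anpep). The Anpep window falls inside the span that the GENCODE annotation gives to the gene, chr7:79821803-79861059.
Sis: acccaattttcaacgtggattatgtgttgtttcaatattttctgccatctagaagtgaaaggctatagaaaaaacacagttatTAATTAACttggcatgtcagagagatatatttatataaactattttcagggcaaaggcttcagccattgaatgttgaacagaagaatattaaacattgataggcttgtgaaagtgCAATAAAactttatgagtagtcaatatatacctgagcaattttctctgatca
Lct: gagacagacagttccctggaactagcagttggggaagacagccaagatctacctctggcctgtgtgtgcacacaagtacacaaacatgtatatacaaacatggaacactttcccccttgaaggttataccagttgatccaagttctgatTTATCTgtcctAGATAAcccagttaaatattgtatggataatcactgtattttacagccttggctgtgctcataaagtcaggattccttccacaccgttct
Mgam: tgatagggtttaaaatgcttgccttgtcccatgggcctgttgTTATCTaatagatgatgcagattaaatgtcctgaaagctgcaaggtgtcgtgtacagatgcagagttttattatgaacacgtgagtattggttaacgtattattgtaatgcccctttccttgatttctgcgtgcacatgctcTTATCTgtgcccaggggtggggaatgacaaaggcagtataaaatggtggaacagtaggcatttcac
Anpep: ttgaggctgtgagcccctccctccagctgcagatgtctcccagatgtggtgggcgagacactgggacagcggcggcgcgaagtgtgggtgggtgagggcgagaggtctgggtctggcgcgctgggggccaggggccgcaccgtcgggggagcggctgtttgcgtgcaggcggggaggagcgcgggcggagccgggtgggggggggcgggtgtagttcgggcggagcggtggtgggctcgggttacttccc
The Sis window held 1 HNF1 and 1 CDX match, and those of Lct and Mgam 2 GATA matches each. The Anpep window held none of the 4 motifs. Windows of the other members called within gated cells did not divide by direction. Those of Slc5a1 and Slc2a5, which were higher, held no match, and neither did those of Slc15a1 and Myo1a, which were lower. The Adh1 window held a GATA match and the Aldh1a1 windows an HNF4 and a GATA match, and both genes were lower.

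**Figure D1:**
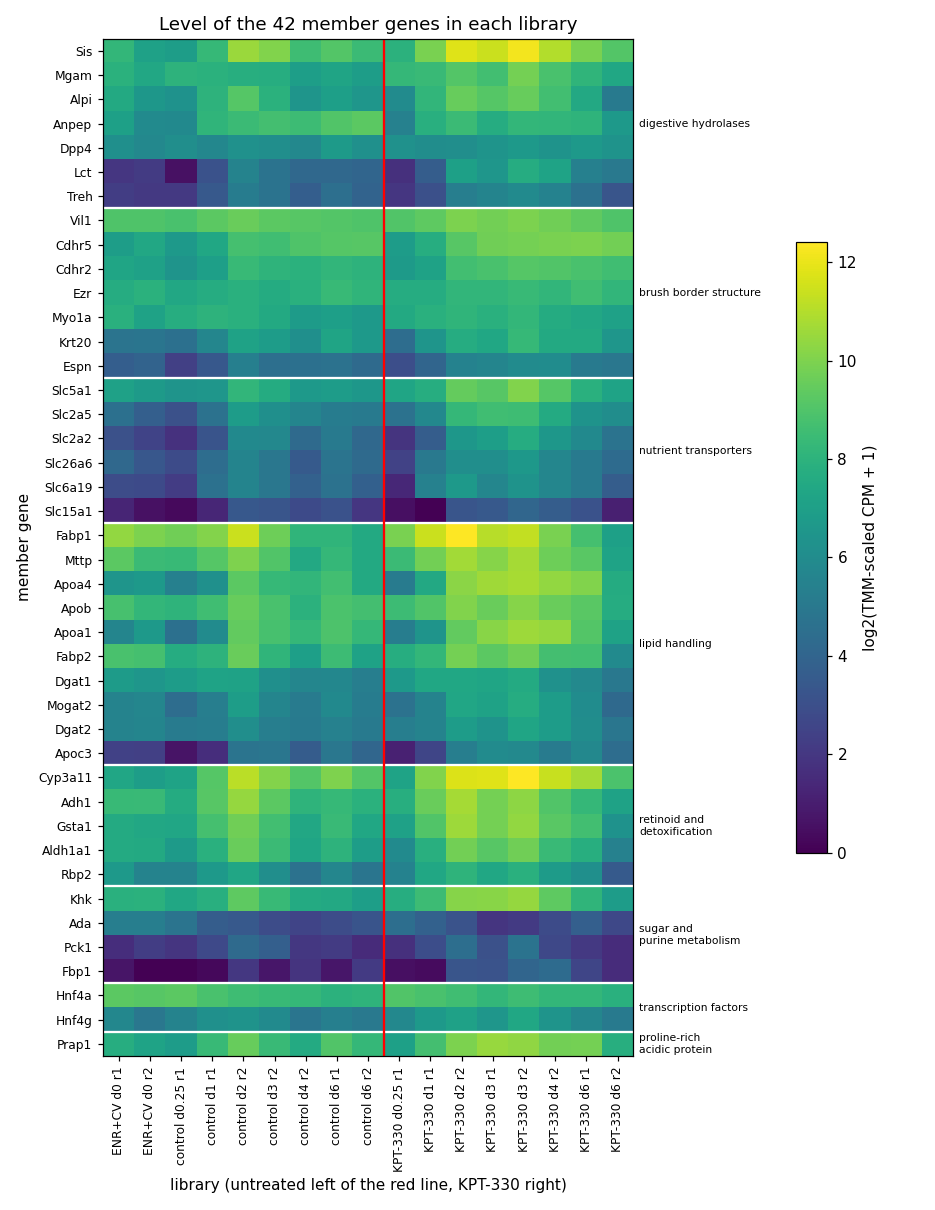
Level of each of the 42 members (rows, grouped by role) in each of the 17 libraries (columns), as log2(TMM-scaled CPM + 1). The days 2 to 4 libraries, with KPT-330 above all, are the brightest for most rows, whereas Ada and Hnf4a are brightest at days 0 and 0.25.

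Untreated organoids were compared first, to follow the absorptive genes as stem-enriched cultures were moved into ENR+CD. Between days 0 and 0.25 (3 libraries) and days 2 to 4 (3 control libraries), with the days of a period as replicates, 23 of the 42 members rose and 2 fell at an edgeR adjusted p under 0.05, against 21.3% and 22.1% of the 13370 genes tested. With a replicate block 15 rose, and the 3 controls of days 2 to 4 all carry replicate number 2 whereas 2 of the 3 earlier libraries carry number 1, so period and replicate number largely coincide. The median log2 difference of the members was 1.40, against 0.02 for all genes. Lct (3.72 ± 0.53, SE), Apoa1 (3.04 ± 0.49), Slc2a2 (3.23 ± 0.50) and Cyp3a11 (3.17 ± 0.47) were among the largest rises on the log2 scale, while Fabp1, Fabp2, Mgam and Dgat1 did not pass the test. The 2 that fell were Ada (−2.26 ± 0.28), the enzyme that deaminates adenosine, and Hnf4a (−0.85 ± 0.16), the hepatocyte nuclear factor that drives enterocyte genes. From days 0 and 0.25 to day 6, 17 members rose and 4 fell, against 19.7% and 20.3% of all genes, the 4 being Fabp1 (−2.23), Dgat1 (−1.23), Ada (−2.27) and Hnf4a (−1.22) on the log2 scale. Leaving out day 6 control replicate 1 brought these counts to 10 and 2, and leaving out day 6 control replicate 2 or day 0 replicate 1 brought the number that fell to 2. In edgeR without the filter on low counts 8 fell (11.4% of the 23434 genes then tested). Between days 2 to 4 and day 6 no member was called in either direction by edgeR, DESeq2 or limma with the filter on low counts (0% and 0% of all genes in edgeR, with 10 members at an unadjusted p under 0.05, 8 of them lower). Without that filter edgeR called 13 members lower at day 6 (0.896% of the 23434 genes then tested), and leaving out the day 4 control gave 2 lower. Within the untreated course 30 of the 42 members were highest in the day 2 control, which is 1 library. The same count was not made over all genes, so no peak of the program was read from it.

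KPT-330 was then compared with control on the same days, in one edgeR fit with a term for each day. At days 2 to 4 (4 KPT-330 and 3 control libraries), 32 of the 42 members were higher and 0 lower, against 12.8% and 11.2% of the 12812 genes tested, and the median log2 fold change was 1.23 against −0.00 for all genes. DESeq2 and limma each called 30 higher, and all 3 tools called 0 lower, with 0 members lower at an unadjusted p under 0.05. Without the filter on low counts edgeR called 1 lower, Anpep (7.18% of the 24050 genes then tested). In 24 members the 4 KPT-330 libraries lay above all 3 controls (12.6% of all genes), and in 0 members below all 3 (14.3%). The call count depended on single libraries, since without the day 3 control it was 4, without the day 4 KPT-330 library 10 and without the day 4 control 11. At days 0.25 and 1 edgeR called no member higher or lower (0.101% and 0.00781% of all genes), with 3 at an unadjusted p under 0.05. DESeq2 and limma called 2 and 1 higher there, and edgeR without the filter 4 (0.586% of the 24050 genes then tested). Over days 0.25 to 6 together, 23 were higher and 1, Anpep (−0.72 ± 0.23, SE), lower, against 14.4% and 14.2% of all genes. Those counts fell to 14 and 0 without day 6 KPT-330 replicate 1, to 12 and 0 without the day 3 control, to 13 higher without the day 4 control, to 14 higher without the day 4 KPT-330 library and to 0 lower without day 6 control replicate 2. In 18 members the mean of KPT-330 lay above control on each of the 6 days (11.9% of all genes), and in 0 below on each (13% of all genes). Without day 6 KPT-330 replicate 1 the 18 became 8 (10.1% of all genes), namely Sis, Lct, Mgam, Espn, Cdhr2, Cdhr5, Slc5a1 and Slc2a5. On plain CPM, without TMM, the median of all genes lay below 0 by 0.17 to 0.36 (log2) at days 2, 3 and 4, and 33, 39 and 38 members were above control against 39, 40 and 40 with TMM.

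The step in size between periods was tested directly. No member was called for a KPT-330 effect that differed between days 2 to 4 and days 0.25 and 1, in either direction, by edgeR, DESeq2 or limma (0% and 0% of all genes in edgeR), and 5 had a larger effect at days 2 to 4 at an unadjusted p under 0.05. Without the filter on low counts edgeR called 18 members with a larger effect at days 2 to 4 (0.906% of the 24050 genes then tested). By the same 3 tools, with the filter, none was called for a different effect at day 6 than at days 2 to 4 (0% and 0% of all genes in edgeR), where 14 had a lower log2 fold change at day 6 at an unadjusted p under 0.05 and the median difference was −1.01 on the log2 scale against 0.00 for all genes. That result also depended on the filter, since without it edgeR called 28 members lower at day 6 than at days 2 to 4 (1.09% of all genes then tested). Without day 6 KPT-330 replicate 1, edgeR called 11.

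Markers of other cell types were summed beside the members. At days 2 to 4, the summed plain CPM of 6 goblet cell markers was 9039 to 13072 with KPT-330 and 6908 to 7511 in controls, that of 6 enteroendocrine markers 256 to 1193 against 1199 to 3907, that of 6 stem markers 1410 to 2005 against 2286 to 2790, and that of 5 cycling markers 45.1 to 193 against 211 to 337. These 4 pairs of ranges did not overlap on plain CPM, whereas those of 6 Paneth markers did, at 29978 to 151374 against 22957 to 96016. The ranges pool days, and on each of these days the Paneth sum was higher with KPT-330. It was 29978 against 22957 at day 2, 93456 and 75624 against 51398.5 at day 3 and 151374 against 96016 at day 4. The enteroendocrine sum was lower on each day, at 256 against 1199, 1120 and 792 against 3513, and 1193 against 3907. The TMM factors of these days were 0.867 to 0.937 with KPT-330 and 1.08 to 1.16 in controls. With the sums divided by them, the enteroendocrine, stem and cycling ranges, which pool the days, overlap and the goblet ranges do not. Among single genes on TMM-scaled CPM, 12.6% lay above all controls of these days and 14.3% below. Lists for tuft, mesenchymal, immune and endothelial cells summed to at most 118 CPM in any library. At days 2 to 4 the tuft sums (0.745 to 2.22 with KPT-330, 2.99 to 5.13 in controls) did not overlap either. The mesenchymal sums (10.2 to 47.8 against 71.9 to 118) did not overlap, while those of the immune and endothelial lists did. None of these markers was at 0 in every library. Their part in the member values was not tested.

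Among the 7 digestive hydrolases, 5 rose with KPT-330 at days 2 to 4 and the 2 peptidases did not. In this and the following paragraphs the change given for a gene is its log2 fold change of KPT-330 against control at days 2 to 4. Sis, sucrase-isomaltase, which splits sucrose and the branches of starch, was the most abundant of them by CPM. Sis measured 298 and 139 CPM at day 0, 119.9, 319.8, 1484, 1077 and 381 CPM in the controls of days 0.25 to 4, and 544 and 353 CPM in the day 6 controls. With KPT-330, Sis measured 249, 953 and 3627 CPM at days 0.25, 1 and 2, 2707 and 4686 CPM at day 3, 1985 CPM at day 4 and 958 and 544 CPM at day 6. Its log2 fold change at days 2 to 4 was 1.81 ± 0.29 (SE), edgeR adjusted p = 0.00237, and KPT-330 lay above control on every day. In untreated organoids Lct read 2.95 and 3.45 CPM at day 0, then 0.473, 7.78, 45.3, 25.8 and 17.3 CPM from day 0.25 to day 4, and 17 and 15.4 CPM at day 6. In KPT-330 libraries Lct was at 2.26, 11.7 and 133 CPM over days 0.25, 1 and 2, 91.4 and 202 CPM at day 3, 147 CPM at day 4 and 41.8 and 31.5 CPM at day 6. Lct, the lactase, had the largest change of the hydrolases, with a log2 fold change of 2.35 ± 0.30 (SE), edgeR adjusted p = 0.000897. For Mgam the day 0 libraries held 238 and 173 CPM, the controls of days 0.25 to 4 held 262, 241, 221, 210.2 and 122 CPM and the day 6 controls 150.1 and 119 CPM. Under KPT-330 Mgam was at 302, 337 and 537 CPM on days 0.25, 1 and 2, at 395 and 900.2 CPM on day 3, at 461 CPM on day 4 and at 277 and 168 CPM on day 6. Maltase-glucoamylase (Mgam), which cuts starch fragments to glucose, did not rise in the untreated course but was above control with KPT-330 at each day, by 1.61 ± 0.27 (SE), edgeR adjusted p = 0.00275 (log2) at days 2 to 4. Treh stood at 3.79 and 3.22 CPM in the day 0 libraries, at 3.19, 10, 35.5, 25.1 and 12 CPM in the controls of days 0.25 to 4 and at 22 and 14.6 CPM in the day 6 controls. Treated libraries held Treh at 2.88, 7.26 and 38.4 CPM on days 0.25, 1 and 2, 47.8 and 60.1 CPM on day 3, 44.3 CPM on day 4 and 24 and 8.51 CPM on day 6. Trehalase (Treh) rose at days 2 to 4 by a log2 fold change of 0.98 ± 0.31 (SE, adjusted p = 0.0394 in edgeR) and was below control on days 0.25 and 1 in these single libraries. Alpi measured 182 and 92.4 CPM at day 0, 79.4, 259, 562, 244 and 87.7 CPM in the controls of days 0.25 to 4, and 129 and 91.1 CPM in the day 6 controls. With KPT-330, Alpi measured 62, 287 and 744 CPM at days 0.25, 1 and 2, 553 and 740.3 CPM at day 3, 402 CPM at day 4 and 176 and 32.3 CPM at day 6. Intestinal alkaline phosphatase (Alpi) had a log2 fold change of 1.33 ± 0.45, just inside the threshold (edgeR adjusted p = 0.0478), and its KPT-330 value at day 4 lay below the day 2 control. In untreated organoids Anpep read 132 and 60.4 CPM at day 0, then 58.6, 275, 349, 422 and 367 CPM from day 0.25 to day 4, and 523 and 616 CPM at day 6. In KPT-330 libraries Anpep was at 42.1, 224 and 351 CPM over days 0.25, 1 and 2, 202 and 293 CPM at day 3, 282 CPM at day 4 and 272 and 103 CPM at day 6. Aminopeptidase N (Anpep) differed from the other hydrolases, with untreated levels that climbed to day 6 and a KPT-330 difference at days 2 to 4 of −0.43 ± 0.26 (SE), edgeR adjusted p = 0.251. Dpp4, dipeptidyl peptidase 4, kept between 51.7 and 109 CPM in all 17 libraries, with a log2 difference of 0.30 ± 0.17 at days 2 to 4 that did not pass the test.

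All 7 brush border structure genes rose at days 2 to 4, by log2 fold changes of 0.42 to 0.99, which were smaller in range than those of the hydrolases. For Vil1 the day 0 libraries held 513 and 503 CPM, the controls of days 0.25 to 4 held 458, 623, 773, 616 and 579 CPM and the day 6 controls 549 and 500.0 CPM. Under KPT-330 Vil1 was at 527, 637 and 1007 CPM on days 0.25, 1 and 2, at 871 and 987 CPM on day 3, at 836 CPM on day 4 and at 669 and 506 CPM on day 6. Vil1, villin, the actin bundler of the microvillus, spanned a narrow range and changed by 0.51 ± 0.14 (SE), edgeR adjusted p = 0.0217. Ezr stood at 205 and 243 CPM in the day 0 libraries, at 173, 206, 233, 201 and 234 CPM in the controls of days 0.25 to 4 and at 324 and 280.1 CPM in the day 6 controls. Treated libraries held Ezr at 205, 205 and 283 CPM on days 0.25, 1 and 2, 286 and 325 CPM on day 3, 290.4 CPM on day 4 and 386 and 286 CPM on day 6. Ezrin (Ezr), the membrane linker, had the smallest called change, 0.42 ± 0.14 on the log2 scale, and its 2 highest controls were at day 6. Espn measured 12.2 and 14.3 CPM at day 0, 4.02, 9.63, 39.6, 22.5 and 22.8 CPM in the controls of days 0.25 to 4, and 24.5 and 18.6 CPM in the day 6 controls. With KPT-330, Espn measured 6.78, 15.3 and 44.7 CPM at days 0.25, 1 and 2, 49.7 and 61.8 CPM at day 3, 64 CPM at day 4 and 33.2 and 28.9 CPM at day 6. Espin (Espn), another actin bundler, had the largest change of the group, 0.99 ± 0.22 (SE), edgeR adjusted p = 0.00847, from a low level at day 0.25. In untreated organoids Myo1a read 235 and 143 CPM at day 0, then 214, 262, 234, 183 and 111 CPM from day 0.25 to day 4, and 127 and 104 CPM at day 6. In KPT-330 libraries Myo1a was at 185, 232 and 278 CPM over days 0.25, 1 and 2, 234 and 299.6 CPM at day 3, 198 CPM at day 4 and 171 and 136 CPM at day 6. Myosin 1a (Myo1a) was lower at day 6 than at day 1 in untreated cultures, and with KPT-330 it was below control at days 0.25 and 1 and above it from day 2 on, with 0.54 ± 0.15 at days 2 to 4. For Cdhr2 the day 0 libraries held 157 and 134 CPM, the controls of days 0.25 to 4 held 86.1, 125, 332, 269 and 244 CPM and the day 6 controls 282 and 262 CPM. Under KPT-330 Cdhr2 was at 106, 143 and 407 CPM on days 0.25, 1 and 2, at 465 and 554 CPM on day 3, at 520.5 CPM on day 4 and at 454 and 384 CPM on day 6. Cdhr2 was above control on each day with KPT-330. Cdhr5 stood at 119.9 and 175 CPM in the day 0 libraries, at 102, 166, 436, 382 and 508 CPM in the controls of days 0.25 to 4 and at 569.5 and 586 CPM in the day 6 controls. Treated libraries held Cdhr5 at 114, 211 and 584 CPM on days 0.25, 1 and 2, 831 and 891 CPM on day 3, 972 CPM on day 4 and 995 and 867 CPM on day 6. These 2 protocadherins form the links between microvilli and rose by 0.78 ± 0.16 and 0.87 ± 0.15 (log2, SE) at days 2 to 4, with both KPT-330 libraries above both controls at day 6. Krt20 measured 26.3 and 27 CPM at day 0, 22.7, 50.4, 143, 116 and 72.3 CPM in the controls of days 0.25 to 4, and 149 and 101 CPM in the day 6 controls. With KPT-330, Krt20 measured 20.5, 86.8 and 206 CPM at days 0.25, 1 and 2, 167 and 315 CPM at day 3, 186 CPM at day 4 and 184 and 91 CPM at day 6. Krt20, a keratin of differentiated villus cells, rose by 0.98 ± 0.29 (SE), edgeR adjusted p = 0.0281, and its day 6 groups overlapped.

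**Figure D2:**
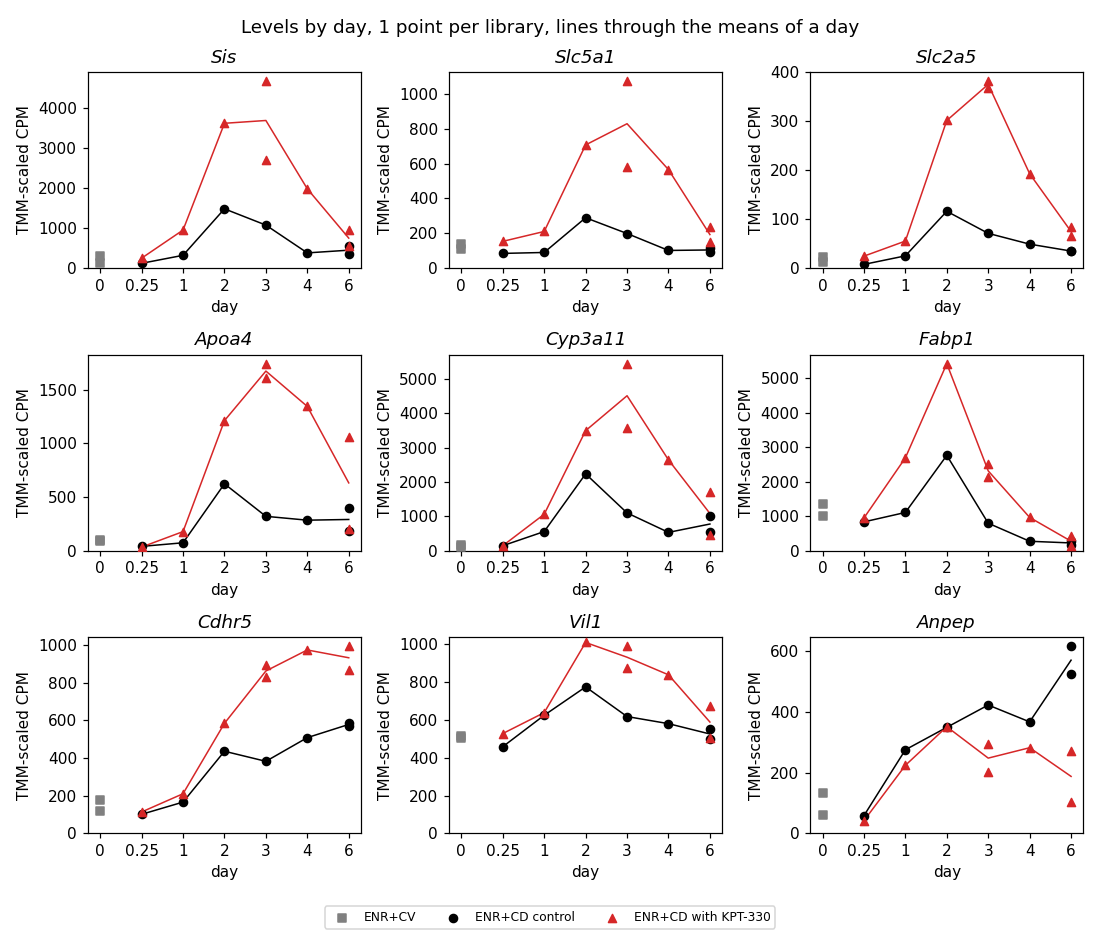
TMM-scaled CPM (linear axis) against day for 9 members, one panel each, with 1 point per library for ENR+CV, ENR+CD control and KPT-330. The KPT-330 points of Sis, Slc5a1 and Slc2a5 lie above the controls of the same day throughout, while those of Anpep lie below from day 0.25 to day 6 apart from day 2.

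Of the 6 nutrient transporters, 5 rose at days 2 to 4, and the peptide transporter Slc15a1 did not. In untreated organoids Slc5a1 read 137 and 108 CPM at day 0, then 84.3, 89.7, 289, 198 and 101 CPM from day 0.25 to day 4, and 115 and 92.8 CPM at day 6. In KPT-330 libraries Slc5a1 was at 153, 210.2 and 707 CPM over days 0.25, 1 and 2, 581 and 1076 CPM at day 3, 565 CPM at day 4 and 237 and 148 CPM at day 6. Slc5a1 (SGLT1) brings glucose and galactose in with sodium, and its log2 fold change was 1.95 ± 0.27 (SE), edgeR adjusted p = 0.00116, with all 4 KPT-330 libraries above all 3 controls. For Slc2a5 the day 0 libraries held 22.8 and 12.4 CPM, the controls of days 0.25 to 4 held 7.57, 25, 116, 71 and 49 CPM and the day 6 controls 35.7 and 34 CPM. Under KPT-330 Slc2a5 was at 24.4, 55.3 and 302 CPM on days 0.25, 1 and 2, at 382 and 369 CPM on day 3, at 193 CPM on day 4 and at 83.2 and 66.4 CPM on day 6. Slc2a5 (GLUT5), the fructose transporter, showed the largest transporter change, 1.96 ± 0.18 (SE), edgeR adjusted p = 0.000175, and was above control in every pairing of libraries within a day. Slc2a2 stood at 7.37 and 4.72 CPM in the day 0 libraries, at 2.36, 8.34, 57.6, 53.9 and 18.4 CPM in the controls of days 0.25 to 4 and at 33.4 and 17.5 CPM in the day 6 controls. Treated libraries held Slc2a2 at 2.67, 11.7 and 94.2 CPM on days 0.25, 1 and 2, 125 and 202 CPM on day 3, 94.1 CPM on day 4 and 58.8 and 25.2 CPM on day 6. Slc2a2 (GLUT2), the basolateral exit route for sugars, changed by 1.51 ± 0.33 (SE), edgeR adjusted p = 0.00847, and its day 6 groups overlapped. Slc6a19 measured 6.32 and 5.87 CPM at day 0, 3.66, 23.5, 46.8, 29.1 and 13.6 CPM in the controls of days 0.25 to 4, and 24.7 and 13.1 CPM in the day 6 controls. With KPT-330, Slc6a19 measured 1.64, 42.7 and 99.7 CPM at days 0.25, 1 and 2, 50.9 and 82.9 CPM at day 3, 50.9 CPM at day 4 and 32 and 11.6 CPM at day 6. The neutral amino acid transporter Slc6a19 was already higher at day 1 with KPT-330, and its change at days 2 to 4 was 1.34 ± 0.32. In untreated organoids Slc26a6 read 17.3 and 9.32 CPM at day 0, then 6.15, 20.4, 47, 28.9 and 10.4 CPM from day 0.25 to day 4, and 26.2 and 18.8 CPM at day 6. In KPT-330 libraries Slc26a6 was at 4.52, 31.8 and 69.8 CPM over days 0.25, 1 and 2, 70.2 and 96.2 CPM at day 3, 50.3 CPM at day 4 and 32 and 19 CPM at day 6. Slc26a6, an anion exchanger, changed by 1.39 ± 0.28, with KPT-330 below control at day 0.25 and overlapping it at day 6. For Slc15a1 the day 0 libraries held 1.47 and 0.46 CPM, the controls of days 0.25 to 4 held 0.236, 1.48, 9.61, 8.5 and 5.8 CPM and the day 6 controls 7.75 and 2.95 CPM. Under KPT-330 Slc15a1 was at 0.411, 0 and 8.78 CPM on days 0.25, 1 and 2, at 10.1 and 15.9 CPM on day 3, at 11.6 CPM on day 4 and at 7.59 and 1.13 CPM on day 6. Slc15a1 (PEPT1) was the scarcest transporter, with no UMI in the day 1 KPT-330 library, which allows up to 0.867 plain CPM, and its difference at days 2 to 4 was 0.46 ± 0.43 (SE), edgeR adjusted p = 0.454. Intervals and floors cover counting error only.

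Among the lipid handling genes at days 2 to 4, 8 of the 10 rose, and Fabp2 and Apoa1 did not pass. Fabp1 stood at 1361 and 1003 CPM in the day 0 libraries, at 839, 1112, 2768, 800.0 and 276 CPM in the controls of days 0.25 to 4 and at 273 and 182 CPM in the day 6 controls. Treated libraries held Fabp1 at 952, 2696 and 5427 CPM on days 0.25, 1 and 2, 2132 and 2505 CPM on day 3, 968 CPM on day 4 and 423 and 133 CPM on day 6. Fabp1, which binds fatty acids in the cytosol, was the most abundant member at day 0 and fell in untreated organoids to the lowest levels of the course by day 6. Its KPT-330 change was 1.45 ± 0.35 (SE), edgeR adjusted p = 0.0133, with the day 4 KPT-330 value below the day 2 control. Apoa4 measured 89.1 and 105 CPM at day 0, 41, 74.5, 623, 321 and 285 CPM in the controls of days 0.25 to 4, and 398 and 185 CPM in the day 6 controls. With KPT-330, Apoa4 measured 34.7, 179 and 1211 CPM at days 0.25, 1 and 2, 1604 and 1740.5 CPM at day 3, 1343 CPM at day 4 and 1063 and 200.5 CPM at day 6. Apoa4, an apolipoprotein of chylomicrons, changed by 1.91 ± 0.52 (SE), edgeR adjusted p = 0.0208, and at day 6 it was at the top of the 4 libraries in KPT-330 replicate 1 and between the controls in replicate 2. In untreated organoids Apoc3 read 4.21 and 4.03 CPM at day 0, then 0.591, 2.04, 26, 28.6 and 11.3 CPM from day 0.25 to day 4, and 29.6 and 16.2 CPM at day 6. In KPT-330 libraries Apoc3 was at 1.23, 5.02 and 38.9 CPM over days 0.25, 1 and 2, 62.3 and 56.9 CPM at day 3, 35.1 CPM at day 4 and 53.8 and 20.4 CPM at day 6. The lipoprotein lipase inhibitor Apoc3 was under 6 CPM until day 1 and changed by 1.04 ± 0.29 (log2, SE) at days 2 to 4. For Apob the day 0 libraries held 443 and 293 CPM, the controls of days 0.25 to 4 held 267, 388, 734, 461 and 248 CPM and the day 6 controls 479 and 415 CPM. Under KPT-330 Apob was at 367, 532 and 1059.8 CPM on days 0.25, 1 and 2, at 769 and 1125 CPM on day 3, at 751 CPM on day 4 and at 597 and 201 CPM on day 6. Apob, the structural protein of the particle, changed by 1.05 ± 0.31, and KPT-330 replicate 2 at day 6 lay below both controls. Mttp stood at 625 and 356 CPM in the day 0 libraries, at 324, 553, 1035, 518 and 181 CPM in the controls of days 0.25 to 4 and at 306 and 187 CPM in the day 6 controls. Treated libraries held Mttp at 353, 876 and 1641 CPM on days 0.25, 1 and 2, 1131 and 1707 CPM on day 3, 826 CPM on day 4 and 599.9 and 144 CPM on day 6. Mttp, which loads triglyceride onto Apob, changed by 1.43 ± 0.42 (SE), edgeR adjusted p = 0.0295, and the 2 KPT-330 libraries of day 6 lay on either side of both controls. Mogat2 measured 46.1 and 50.6 CPM at day 0, 20.7, 39.1, 119, 49.1 and 34.8 CPM in the controls of days 0.25 to 4, and 57.4 and 36.5 CPM in the day 6 controls. With KPT-330, Mogat2 measured 24.6, 46.3 and 161 CPM at days 0.25, 1 and 2, 141 and 203 CPM at day 3, 116 CPM at day 4 and 64.2 and 17.9 CPM at day 6. Mogat2 levels with KPT-330 at day 6 lay above and below both controls. In untreated organoids Dgat1 read 112 and 92 CPM at day 0, then 116, 145, 143, 72 and 50.9 CPM from day 0.25 to day 4, and 51.8 and 38.4 CPM at day 6. In KPT-330 libraries Dgat1 was at 104, 169.7 and 167 CPM over days 0.25, 1 and 2, 156 and 188 CPM at day 3, 77.7 CPM at day 4 and 55.4 and 30.1 CPM at day 6. Mogat2 and Dgat1 carry out successive steps of triglyceride resynthesis and changed by 1.35 ± 0.36 and 0.74 ± 0.22 (log2, SE). For Dgat2 the day 0 libraries held 45.9 and 48.9 CPM, the controls of days 0.25 to 4 held 34.3, 36.9, 68.6, 39 and 33.3 CPM and the day 6 controls 42.6 and 33.5 CPM. Under KPT-330 Dgat2 was at 38, 46.3 and 115 CPM on days 0.25, 1 and 2, at 81.2 and 154 CPM on day 3, at 114 CPM on day 4 and at 67.1 and 28.6 CPM on day 6. Dgat2, which acts at the same step as Dgat1, changed by 1.37 ± 0.29 (SE), edgeR adjusted p = 0.00735, and all 4 KPT-330 libraries lay above all 3 controls. Fabp2, a second fatty acid binding protein, ranged from 60.4 to 903 CPM and Apoa1, the apolipoprotein of HDL and chylomicrons, from 22.9 to 1541 CPM, with log2 differences at days 2 to 4 of 1.15 ± 0.52 and 1.32 ± 0.45 that missed the threshold (edgeR adjusted p = 0.124 and 0.0508).

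In the retinoid and detoxification group, Rbp2, Cyp3a11 and Gsta1 rose at days 2 to 4, and Adh1 and Aldh1a1 did not pass. Cyp3a11 stood at 162 and 119 CPM in the day 0 libraries, at 148, 559, 2234, 1100.1 and 535 CPM in the controls of days 0.25 to 4 and at 1018 and 537 CPM in the day 6 controls. Treated libraries held Cyp3a11 at 148, 1062 and 3490.3 CPM on days 0.25, 1 and 2, 3574 and 5434 CPM on day 3, 2640.2 CPM on day 4 and 1699.7 and 468 CPM on day 6. Cyp3a11, a cytochrome P450 that oxidises drugs and steroids, was the most abundant of the group and changed by 1.70 ± 0.45 (SE), edgeR adjusted p = 0.0196. Gsta1 measured 194 and 175 CPM at day 0, 163, 424, 845, 402 and 174 CPM in the controls of days 0.25 to 4, and 341 and 164 CPM in the day 6 controls. With KPT-330, Gsta1 measured 136, 525 and 1519.7 CPM at days 0.25, 1 and 2, 892 and 1369 CPM at day 3, 595 CPM at day 4 and 396 and 78.3 CPM at day 6. Gsta1, a glutathione transferase with close paralogs that may share reads, changed by 1.38 ± 0.44 (SE), edgeR adjusted p = 0.0399. In untreated organoids Rbp2 read 104 and 45.2 CPM at day 0, then 45.5, 100.4, 159, 69.6 and 24.5 CPM from day 0.25 to day 4, and 50.4 and 27.6 CPM at day 6. In KPT-330 libraries Rbp2 was at 44.2, 169 and 264 CPM over days 0.25, 1 and 2, 165 and 230.1 CPM at day 3, 113 CPM at day 4 and 70.6 and 10.49 CPM at day 6. Rbp2 carries retinol in the cytosol and changed by 1.44 ± 0.44 (SE), edgeR adjusted p = 0.0326, with the day 6 KPT-330 libraries above and below both controls. For Adh1 the day 0 libraries held 327 and 335 CPM, the controls of days 0.25 to 4 held 199, 572, 1402, 625 and 268 CPM and the day 6 controls 317 and 245 CPM. Under KPT-330 Adh1 was at 221, 750.5 and 1683 CPM on days 0.25, 1 and 2, at 888 and 1239 CPM on day 3, at 534 CPM on day 4 and at 309 and 143 CPM on day 6. Adh1 was lower in both KPT-330 libraries of day 6 than in day 6 control replicate 1. Aldh1a1 stood at 191 and 184 CPM in the day 0 libraries, at 108, 233, 758, 348 and 154 CPM in the controls of days 0.25 to 4 and at 261 and 119.6 CPM in the day 6 controls. Treated libraries held Aldh1a1 at 59.6, 222 and 884 CPM on days 0.25, 1 and 2, 583 and 845 CPM on day 3, 334 CPM on day 4 and 218 and 42.5 CPM on day 6. Adh1 and Aldh1a1 oxidise retinol to retinal and retinal to retinoic acid, and their log2 differences at days 2 to 4 were 0.68 ± 0.25 and 0.81 ± 0.44, neither past the threshold (edgeR adjusted p = 0.0626 and 0.189).

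Of the sugar and purine group, Khk and Fbp1 rose at days 2 to 4, and Pck1 and Ada did not pass. Khk measured 238 and 246 CPM at day 0, 167, 229, 653, 325 and 188 CPM in the controls of days 0.25 to 4, and 178 and 125 CPM in the day 6 controls. With KPT-330, Khk measured 209.7, 361 and 1128 CPM at days 0.25, 1 and 2, 1162 and 1381 CPM at day 3, 653 CPM at day 4 and 277 and 114 CPM at day 6. Khk, ketohexokinase, takes the first step of fructose use after Slc2a5 and changed by 1.56 ± 0.30 (SE), edgeR adjusted p = 0.00541 at days 2 to 4. In untreated organoids Fbp1 read 0.632 and 0 CPM at day 0, then 0, 0.185, 2.99, 0.671 and 2.59 CPM from day 0.25 to day 4, and 0.711 and 3.37 CPM at day 6. In KPT-330 libraries Fbp1 was at 0.411, 0.279 and 8.69 CPM over days 0.25, 1 and 2, 7.94 and 15.8 CPM at day 3, 19.2 CPM at day 4 and 5.06 and 1.98 CPM at day 6. Fbp1, a gluconeogenic phosphatase, had the largest fitted change of all members, 2.68 ± 0.52 (SE), edgeR adjusted p = 0.00548, but rested on few molecules, 89 UMIs in all untreated libraries together, and had none in 2 of them, whose floors of 3 counts are 0.416 and 0.376 plain CPM. For Pck1 the day 0 libraries held 2.11 and 3.8 CPM, the controls of days 0.25 to 4 held 2.72, 5.74, 18.5, 12.5 and 3.08 CPM and the day 6 controls 3.48 and 1.9 CPM. Under KPT-330 Pck1 was at 2.26, 6.7 and 21.1 CPM on days 0.25, 1 and 2, at 7.43 and 25.2 CPM on day 3, at 5.53 CPM on day 4 and at 3.16 and 1.98 CPM on day 6. Pck1, which makes phosphoenolpyruvate, peaked at day 2 in controls and differed by 0.37 ± 0.34 with KPT-330 (log2, SE), not past the threshold. Ada stood at 38.8 and 38.4 CPM in the day 0 libraries, at 26.5, 11.5, 10.2, 6.38 and 4.81 CPM in the controls of days 0.25 to 4 and at 6.32 and 8.22 CPM in the day 6 controls. Treated libraries held Ada at 21.4, 13.4 and 7.96 CPM on days 0.25, 1 and 2, 2.82 and 3.36 CPM on day 3, 6.06 CPM on day 4 and 12.7 and 5.39 CPM on day 6. Ada was highest at day 0, fell in the untreated course, and differed by −0.45 ± 0.30 at days 2 to 4 (log2, SE), also not past the threshold.

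The transcription factors separated from each other. Hnf4a measured 615 and 582 CPM at day 0, 620.1, 457, 380.2, 326 and 305 CPM in the controls of days 0.25 to 4, and 254 and 265 CPM in the day 6 controls. With KPT-330, Hnf4a measured 527, 462 and 385 CPM at days 0.25, 1 and 2, 292 and 372 CPM at day 3, 297 CPM at day 4 and 297 and 238 CPM at day 6. Hnf4a was highest at days 0 and 0.25 and did not move with KPT-330 at days 2 to 4 beyond its error (0.00 ± 0.13 (SE), edgeR adjusted p = 0.989), where several settings put it marginally below 0. In untreated organoids Hnf4g read 52 and 29.3 CPM at day 0, then 46.2, 75, 82.9, 59.5 and 27.4 CPM from day 0.25 to day 4, and 39.8 and 31.8 CPM at day 6. In KPT-330 libraries Hnf4g was at 54.6, 99.4 and 137 CPM over days 0.25, 1 and 2, 89.4 and 168 CPM at day 3, 85.7 CPM at day 4 and 51.6 and 32.3 CPM at day 6. Its paralog Hnf4g, also active in enterocytes, changed by 1.13 ± 0.23 (SE), edgeR adjusted p = 0.00647, with all 4 KPT-330 libraries above all 3 controls. For Prap1 the day 0 libraries held 209.8 and 148 CPM, the controls of days 0.25 to 4 held 116, 333, 736, 334 and 191 CPM and the day 6 controls 529.6 and 305 CPM. Under KPT-330 Prap1 was at 131, 421 and 1002 CPM on days 0.25, 1 and 2, at 1436 and 1297 CPM on day 3, at 868 CPM on day 4 and at 899 and 220.0 CPM on day 6. Prap1, a secreted proline-rich acidic protein of the gut epithelium, changed by 1.61 ± 0.45 (SE), edgeR adjusted p = 0.0238 and was above control on each day by the day means.

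At day 6 an increase was called for 1 member, Slc2a5, and a decrease for 1, Anpep, in edgeR (2.13% and 1.65% of all genes called higher and lower). DESeq2 called 4 higher and 1 lower, limma 2 and 1, and edgeR with a replicate block 2 higher. Without the filter on low counts edgeR called 10 higher and 1 lower (2.18% and 2.72% of the 24050 genes then tested). Slc2a5 measured 83.2 and 66.4 CPM against 35.7 and 34.0 CPM, a log2 fold change of 1.11 ± 0.23 (SE), edgeR adjusted p = 0.0256. Anpep measured 272 and 103 CPM against 523 and 616 CPM, −1.58 ± 0.36 (SE), edgeR adjusted p = 0.0313. The Slc2a5 call was lost without either day 6 control or without KPT-330 replicate 1, and the Anpep call without either control or without KPT-330 replicate 2. Without KPT-330 replicate 1 the count was 0 higher and 2 lower, and without KPT-330 replicate 2 it was 2 higher and 0 lower. In 9 members both KPT-330 libraries lay above both controls, a count close to the share of all genes (22.9%). They were Sis, Lct, Mgam, Espn, Myo1a, Cdhr2, Cdhr5, Slc5a1 and Slc2a5. For Sis the margin was 544.44 against 543.97 CPM, and on plain CPM the order did not hold for Sis, Mgam, Espn and Myo1a. In 1 member, Anpep, both KPT-330 libraries lay below both controls (25.2% of all genes). With TMM 28 of 42 members had a higher KPT-330 mean at day 6, against 49.2% of all genes. On plain CPM 14 had one, against 14.6% of all genes. The median log2 difference of the members was 0.21 with TMM, against −0.01 for all genes. On plain CPM it was −0.21 against −0.37. The side of 0 on which most members lay thus depended on the scaling, while on both scales their median lay above that of all genes. In 19 of the 42 members KPT-330 replicate 1 lay above both controls and replicate 2 below both (8.27% of all genes), Cyp3a11, Fabp1, Apoa1, Apob, Mttp, Alpi, Krt20 and Prap1 among them, and in 0 members the reverse held. Over all genes, 16.8% had 1 KPT-330 library above and 1 below both controls when either order was counted. For the uncalled members named in this comparison, the log2 differences were 0.76 ± 0.35 (Sis), 1.17 ± 0.42 (Lct), 0.74 ± 0.33 (Mgam), 0.90 ± 0.33 (Slc5a1), 0.70 ± 0.19 (Cdhr5), 1.14 ± 0.62 (Apoa4) and 0.50 ± 0.54 (Cyp3a11). The differences of Apoa4 and Cyp3a11 became −0.54 and −0.73 without KPT-330 replicate 1.

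**Figure D3:**
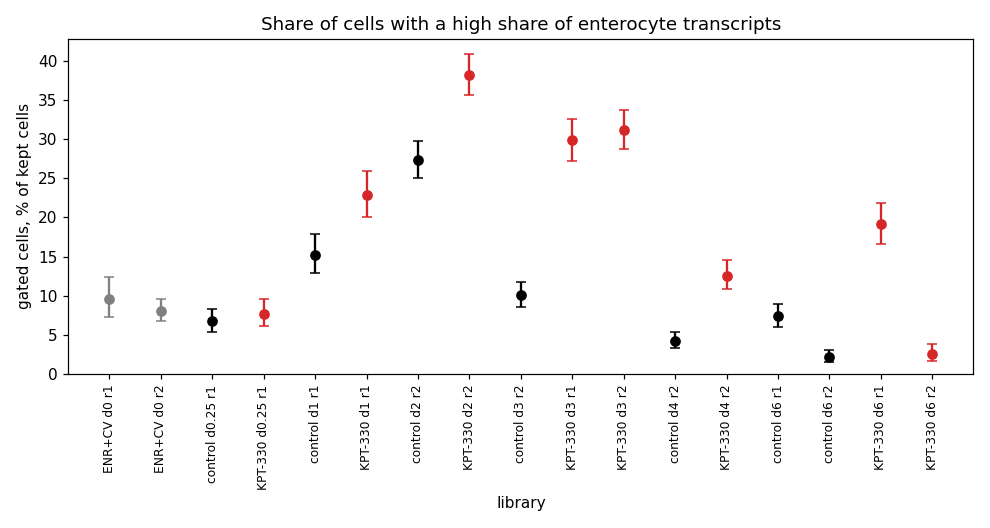
Share of kept cells that passed the enterocyte gate in each library (percent, points) with exact 95% binomial intervals, by day and condition. The share peaked at day 2 (control 27.3%, KPT-330 38.2%), and the 2 KPT-330 libraries of day 6 lie far apart, at 19.1% and 2.60%.

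Single cells then allowed the members to be read inside enterocyte-marked cells. The gate kept cells with at least 0.2% of their UMIs from 12 enterocyte genes that are not members (Enpep, Mep1b, Mme, Creb3l3, Cyp2d26, Cyp4f14, Apoc2, Ces2e, Clic5, Akp3 and S100g among them), a range of a score rather than a cell type, and 331 cells lay between 0.15% and 0.25%. It kept 3014 cells. In untreated libraries 41 of the 42 members were higher and 1, Ada, was lower in gated than in other cells of the same library (edgeR, 28.6% and 39.7% of 12382 genes), with a median log2 difference of 5.10 against −0.20 for all genes. That contrast checks the gate and the label, and many of the members are in the study's own enterocyte list from these samples. The log2 differences ran from 8.72 ± 0.47 (Cyp3a11) and 8.60 ± 0.30 (Apoa1) down to 0.89 ± 0.16 (Ezr) and 0.73 ± 0.16 (Hnf4a), and Ada stood at −1.42 ± 0.31. Gated cells were 9.94% of untreated cells and held 14.6% of their UMIs, yet they held 98.4% of the Cyp3a11, 98.1% of the Lct, 98.0% of the Slc2a2 and 97.6% of the Apoa4 UMIs. In 10 of the 42 members most UMIs came from cells outside the gate. These were Vil1 (26.7% in gated cells), Ezr (19.6%), Myo1a, Cdhr2 and Cdhr5 of the structure genes, the hydrolases Mgam (36.4%), Anpep (39.6%) and Dpp4 (28.2%), Hnf4a (16.8%) and Ada (3.80%). The other structure genes, Krt20 (69.3%) and Espn (64.9%), and Hnf4g (59.3%) had most of theirs inside it.

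The share of gated cells followed the whole-library course. It was 9.60% and 8.05% at day 0. The controls of days 0.25, 1, 2, 3 and 4 had 6.75%, 15.3%, 27.3%, 10.1% and 4.20% of cells in the gate. The KPT-330 libraries of the same days had 7.69%, 22.9%, 38.2%, then 29.8% and 31.2% in the day 3 pair, and 12.6%. The KPT-330 share was above that of control on each day by the day means, by 9.05 percentage points on average over the 6 days (two-sided exact permutation of the labels within days, p = 0.0104 over 288 relabellings). The difference was 7.67 points without day 6 KPT-330 replicate 1 (exact p = 0.0208), and without the day 3 control it was 6.78 points and not past 0.05 (exact p = 0.0625). Gated cells held between 47.6% and 94.99% of the UMIs of all members in every library but the day 0.25 pair, at 34.6% and 39.3%.

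Within gated cells KPT-330 was compared with control again, over the ENR+CD libraries with a day term, to see which members differed per gated cell RNA rather than by the number of such cells. Of the 41 members tested there, 5 were higher and 5 lower (1.39% and 1.67% of 8925 genes), and the median log2 fold change was 0.03 against −0.00 for all genes. DESeq2 called 6 higher and 5 lower, and limma 3 and 3. Ada did not pass the filter on low counts there. Those higher were Sis, Lct, Mgam, Slc5a1 and Slc2a5, and those lower were Anpep, Slc15a1, Aldh1a1, Adh1 and Myo1a. The remaining disaccharidase, Treh, was not called (−0.49 ± 0.14 (SE), edgeR adjusted p = 0.0674), nor were the sugar transporter Slc2a2 (0.19 ± 0.14 (SE), edgeR adjusted p = 0.601) and the peptidase Dpp4 (0.05 ± 0.14 (SE), edgeR adjusted p = 0.936). Each of the 5 that were higher was also called higher at days 2 to 4 in whole libraries, and 1 of those lower, Myo1a, was called higher there. The number higher was 3 without the day 2 control, the day 2 KPT-330 library, the day 4 control, the day 4 KPT-330 library or day 6 KPT-330 replicate 2. The number lower was 1 without the day 3 control and 3 without the day 1 or day 2 library of either condition, either day 6 control or day 6 KPT-330 replicate 2, and 2 without all day 6 libraries. In the gated cells the summed Paneth markers ranged from 29.95 to 68058 plain CPM between libraries, and their part in these values was not tested.

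**Figure D4:**
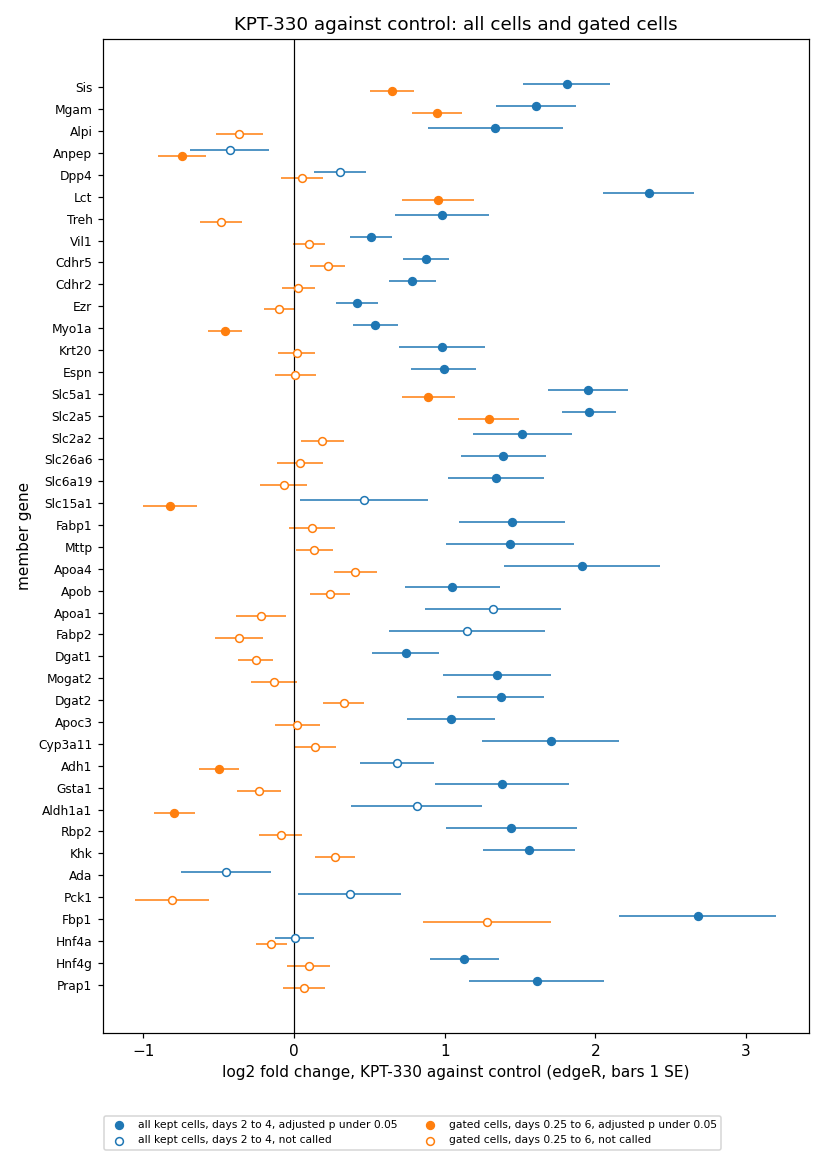
Log2 fold change of KPT-330 against control (± 1 SE) of each member, in whole libraries at days 2 to 4 and within gated cells over all days. Whole-library values lie to the right of 0 for 40 of 42 members, whereas within gated cells they spread on both sides, from −0.82 (Slc15a1) to 1.29 (Slc2a5).

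Levels in this and the next paragraph are TMM-scaled CPM over gated cells alone. The fructose transporter led the increases. Slc2a5 stood at 141 and 106 CPM in the day 0 libraries, at 63.8, 69.8, 331, 322 and 413 CPM in the controls of days 0.25 to 4 and at 165 and 273 CPM in the day 6 controls. Treated libraries held Slc2a5 at 187, 173 and 683 CPM on days 0.25, 1 and 2, 1045 and 798 CPM on day 3, 776 CPM on day 4 and 275 and 887 CPM on day 6. Slc2a5 was above control on every day, with a log2 fold change of 1.29 ± 0.20 (SE), edgeR adjusted p = 0.000771. Slc5a1 measured 385 and 332 CPM at day 0, 188, 284, 863, 1185 and 977 CPM in the controls of days 0.25 to 4, and 811 and 1141 CPM in the day 6 controls. With KPT-330, Slc5a1 measured 399.7, 506 and 1619 CPM at days 0.25, 1 and 2, 1590.0 and 2372 CPM at day 3, 2409 CPM at day 4 and 909 and 2326 CPM at day 6. Slc5a1 differed by 0.89 ± 0.18 (SE), edgeR adjusted p = 0.00613, and its day 6 groups overlapped because KPT-330 replicate 1 lay between the controls. In untreated organoids Mgam read 378 and 224 CPM at day 0, then 303, 320.0, 478, 755 and 672 CPM from day 0.25 to day 4, and 738 and 775 CPM at day 6. In KPT-330 libraries Mgam was at 460.2, 537 and 1138 CPM over days 0.25, 1 and 2, 979 and 1913 CPM at day 3, 1814 CPM at day 4 and 919.7 and 1758 CPM at day 6. Mgam differed by 0.95 ± 0.17 (SE), edgeR adjusted p = 0.00248, above control in every pairing of libraries within a day. For Sis the day 0 libraries held 2289 and 1479.9 CPM, the controls of days 0.25 to 4 held 1328, 1615, 4769, 6770.0 and 4122 CPM and the day 6 controls 3336 and 3654 CPM. Under KPT-330 Sis was at 2319, 3020.4 and 8506 CPM on days 0.25, 1 and 2, at 7413 and 10368 CPM on day 3, at 8321 CPM on day 4 and at 3391 and 5523 CPM on day 6. Sis differed by 0.65 ± 0.15 (SE), edgeR adjusted p = 0.0174, and at day 6 replicate 1 with KPT-330 lay between the controls. Lct stood at 19 and 38.4 CPM in the day 0 libraries, at 3.54, 39.6, 149, 183 and 249 CPM in the controls of days 0.25 to 4 and at 144 and 258 CPM in the day 6 controls. Treated libraries held Lct at 21, 39.4 and 314 CPM on days 0.25, 1 and 2, 256 and 452 CPM on day 3, 645 CPM on day 4 and 173 and 584 CPM on day 6. Lct differed by 0.95 ± 0.24 (SE), edgeR adjusted p = 0.0339, with equal levels at day 1 to within 1 CPM.

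The decreases were spread over days. Anpep measured 868 and 596 CPM at day 0, 421, 727, 889, 1226 and 742 CPM in the controls of days 0.25 to 4, and 1414 and 1296 CPM in the day 6 controls. With KPT-330, Anpep measured 276, 511 and 729.6 CPM at days 0.25, 1 and 2, 329 and 549 CPM at day 3, 735 CPM at day 4 and 755 and 622 CPM at day 6. Anpep was below control on every day, with a log2 difference of −0.74 ± 0.16 (SE), edgeR adjusted p = 0.0112. In untreated organoids Slc15a1 read 12.1 and 5.49 CPM at day 0, then 3.54, 6.25, 30.9, 54.1 and 78.1 CPM from day 0.25 to day 4, and 58.5 and 46.7 CPM at day 6. In KPT-330 libraries Slc15a1 was at 2.63, 0 and 20.8 CPM over days 0.25, 1 and 2, 27.5 and 34.7 CPM at day 3, 46.7 CPM at day 4 and 31.8 and 16.2 CPM at day 6. Slc15a1 was also lower on every day, by −0.82 ± 0.18 (SE), edgeR adjusted p = 0.0117, at levels under 80 CPM and with no UMI in the gated cells of the day 1 KPT-330 library, which allows up to 3.05 plain CPM there. For Aldh1a1 the day 0 libraries held 1365 and 1951 CPM, the controls of days 0.25 to 4 held 1140.5, 1211, 2468, 2432 and 2227 CPM and the day 6 controls 2165 and 1945 CPM. Under KPT-330 Aldh1a1 was at 565, 728 and 2076 CPM on days 0.25, 1 and 2, at 1647 and 1883 CPM on day 3, at 1446 CPM on day 4 and at 869 and 784 CPM on day 6. Aldh1a1 differed by −0.79 ± 0.13 (SE), edgeR adjusted p = 0.00178, with the widest gap at day 6. Adh1 stood at 2022 and 3528 CPM in the day 0 libraries, at 1779.8, 2633, 4478, 4050.4 and 3039.5 CPM in the controls of days 0.25 to 4 and at 1820.2 and 2250.3 CPM in the day 6 controls. Treated libraries held Adh1 at 1769.7, 2259.7 and 3885 CPM on days 0.25, 1 and 2, 2409.7 and 2722 CPM on day 3, 2213 CPM on day 4 and 993 and 1131 CPM on day 6. Adh1 differed by −0.50 ± 0.13 (SE), edgeR adjusted p = 0.0483, close to the threshold. Myo1a measured 593 and 453 CPM at day 0, 563, 679.7, 618, 813 and 506 CPM in the controls of days 0.25 to 4, and 460.2 and 485 CPM in the day 6 controls. With KPT-330, Myo1a measured 542, 503 and 529 CPM at days 0.25, 1 and 2, 438 and 473 CPM at day 3, 456 CPM at day 4 and 290.4 and 303 CPM at day 6. Myo1a differed by −0.46 ± 0.11 (SE), edgeR adjusted p = 0.0314, and was below control on each day. The 10 lipid handling members gave no call within gated cells, with log2 differences from −0.37 (Fabp2) to 0.41 (Apoa4), although 4 of them had an unadjusted p under 0.05.

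A second list of 73 other enterocyte genes, 61 of them outside the gate, was set beside the members. At days 2 to 4, 30 of the 58 tested outside the gate rose with KPT-330 and 2 fell, against 12.8% and 11.2% of all 12812 genes. The median log2 fold change of the 58 was 0.76. The guanylin family peptide Guca2b (1.57) and the amino acid transporter Slc7a9 (1.58) were among those that rose, and the 2 that fell were the peptidase Naaladl1 (−1.10) and the ectonucleotidase Enpp3 (−1.83). Within gated cells 2 of 57 were higher, Guca2b (0.62) among them, and 5 lower, against 1.39% and 1.67% of all 8925 genes. The 5 were Naaladl1 (−1.95), the glutamyl transferase Ggt1 (−1.51), the fatty acid transporter Cd36 (−1.07), the angiotensin-converting peptidase Ace (−0.90) and the nuclear receptor Nr1i3 (−0.81), each on the log2 scale.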

How the data were processed

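Single-cell libraries were prepared with Seq-Well S3 from pooled organoids at days 0 to 6. The deposited tables hold UMI-collapsed counts per gene and cell, which the authors made with bcl2fastq, STAR alignment to mm10 and the Drop-seq tools, whose version the sources give differently. The authors then removed cells by gene number, mitochondrial share, UMI number, housekeeping genes and DoubletFinder, and the cells they kept are those used here.

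For this report, counts of kept cells were summed per library with Python 3.11.15 and tested with edgeR 4.0.16 in R 4.3.3 (quasi-likelihood test, filterByExpr, TMM, Benjamini-Hochberg adjustment over all genes, threshold 0.05). KPT-330 was tested with day as a factor, and the untreated course by stage, so days within a stage served as replicates. The gate of 0.2% of UMIs was applied to single cells, the 12 gate genes were dropped, and libraries with at least 20 gated cells were summed again. Shares carry exact 95% binomial intervals. The scripts were tested on simulated counts. Promoter windows are RefSeq GRCm38.p6, and gene spans GENCODE on GRCm38, the assembly of mm10.

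The members and lists were chosen with earlier results of these data known. Many of the members, Sis, Fabp1, Apoa1, Apoa4 and Cyp3a11 among them, and several gate genes are in the study's enterocyte list, which was made from these samples, so their enrichment in gated cells is not independent evidence. Values in every library were given to the up to 3 most abundant members of each role group and to any member called in a treatment contrast, 39 in all, and the other 3 by range. The alternatives were RLE size factors, no filter, DESeq2, limma on log2(CPM + 1), a replicate block, other cell filters, dropped mitochondrial and Paneth genes, other gates, and leaving out each library. Leaving out the day 6 libraries and the permutation test of the share of gated cells were added after the data were seen. Some genes of the gate and of the other enterocyte list are not reported here by name.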

Additional observations from a re-analysis of the deposited data

How the results depend on the processing

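Of 460 alternative counts of called members, 398 were within 1.5 times the reported count. Without a filter on low counts, the members called were 4 higher at days 0.25 and 1, 1 lower at days 2 to 4, 10 higher at day 6, 18 with a larger effect at days 2 to 4 than early, 28 with a lower effect at day 6 than at days 2 to 4, 13 lower in untreated organoids at day 6 than at days 2 to 4 and 8 lower there than at days 0 and 0.25. DESeq2 gave 2 higher at days 0.25 and 1 and 4 at day 6. Limma gave 1 and 2, with 3 higher and 3 lower within gated cells. All barcodes within the stated limits gave 1 higher at days 0.25 and 1. Within gated cells 3 were lower with a gate at 0.1%, 3 with at least 50 gated cells and 2 without the day 6 libraries. The cause of these shifts was not tested. Leaving out 1 library at a time gave 12 to 34 higher and 0 to 1 lower over days 0.25 to 6, 0 to 1 higher at days 0.25 and 1, 4 to 36 higher at days 2 to 4, 0 to 2 higher and 0 to 2 lower at day 6, and 0 to 11 with a lower effect at day 6 than at days 2 to 4. It gave 0 to 2 lower in untreated organoids at day 6 against days 2 to 4, 10 to 19 higher and 2 to 6 lower against days 0 and 0.25, and 3 to 6 higher and 1 to 5 lower within gated cells. The sign of Hnf4a at days 2 to 4 turned with RLE size factors (−0.0085), no filter (−0.0092), DESeq2 (−0.0085) and dropped mitochondrial and Paneth genes (−0.025), and leaving out 1 library gave −0.052 to 0.052. The same gave −0.0079 to 0.62 for Pck1 at days 2 to 4, and at day 6 −0.54 to 1.90 for Apoa4 and −0.73 to 1.16 for Cyp3a11. The share of gated cells with KPT-330 less control was 6.78 to 10.7 percentage points with 1 library left out. Of 3451 alternatives for single members, 3062 kept direction and side of the threshold, 329 lost and 38 gained a call, and 14 reversed.

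Whether replicate numbers pair libraries is not given by the labels. Deviations of same-numbered libraries correlated at 0.37 for the day 6 groups and at 0.014 to 0.11 for the other 4 pairs of groups, over 13455 genes, so the numbers were not taken as a pairing. With a replicate block the members called were 1 higher at days 0.25 and 1, 2 higher at day 6 and 15 higher in untreated organoids at days 2 to 4 against days 0 and 0.25, and no other count moved by over 1.5 times. Scarce members (Slc15a1, Fbp1, Pck1, Ada) are limited by depth.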

Other observations

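Sucrase-isomaltase was also read outside the gated cells, and unevenly. After each cell was thinned to 1000 UMIs, Sis had a UMI in 78.1% of gated cells of untreated libraries (exact 95% interval 75.6% to 80.5%) and in 24.3% of 1755 cells marked by enteroendocrine genes (22.3% to 26.3%), but in 1.82% of 2919 cells marked by Paneth genes (1.36% to 2.37%). With KPT-330 the shares were 93.2%, 30.1% and 3.71%. Unthinned, 43.4% of the untreated enteroendocrine-marked and 7.13% of the Paneth-marked cells had a Sis UMI, at median depths of 4854 and 5174 UMIs. Apoa4, a gene with more UMIs per gated cell than Lct or Alpi, did not show this split, with 1.03% of enteroendocrine-marked and 1.06% of Paneth-marked untreated cells. The split was not particular to Sis, since Dpp4 (15.6% and 0.993%) and Krt20 (10.7% and 0.685%) had it too. Other members went the opposite way, such as Myo1a (4.22% and 12.2%) and Cdhr5 (32.3% and 45.8%), in enteroendocrine-marked and Paneth-marked untreated cells. Both classes are cuts on marker UMIs rather than cell types.

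Anpep was also read outside the gate. In untreated libraries a thinned cell had an Anpep UMI in 20.01% of Paneth-marked cells (18.6% to 21.5%), 11.8% of enteroendocrine-marked and 53.4% of gated cells. Its levels in the summed untreated cells of the first 2 classes were close, at 261 and 254 plain CPM, so no order between them was read from the shares. With KPT-330 the shares were 5.71%, 5.46% and 35.2%. Unthinned they were 55.0%, 32.8% and 87.9% in untreated cells and 21.8%, 17.4% and 79.0% with KPT-330. Cells are not replicates and these shares pool libraries of several days, so no test was made.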
